A study of Mus musculus with 12 samples.

Results

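The loci described here were open in mouse embryonic fibroblasts (MEFs) transformed by Hdac7SA.Mef2d and by Hras.E1A, and had no peak in MEFs transformed by Hras.Myc. Peaks of all 7 ATAC-seq lists of the series were merged wherever they overlapped by 1 bp or more, on chromosomes 1 to 19, X and Y. A locus became a member when it held a peak of untreated Hdac7SA.Mef2d and of untreated Hras.E1A and none of Hras.Myc, untreated or with PD. The rule gave 10466 members of 147985 merged loci, which was 16.0% of the 65391 loci shared by Hdac7SA.Mef2d and Hras.E1A. The members were thus selected on the presence or absence of peaks in those 4 lists, so their state in them is a description. The state in Hras.E1A +PD, Hras.E1A +TSA and Hras.Myc +TSA, the genomic position and the sequence were not used by the rule.

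The cells were OG2 MEFs, which carry an Oct4-GFP reporter, prepared from E13.5 embryos. The growth text in the labels names an ICR background, which does not match the OG2 source name. The 3 lines were transformed by the transgenes Hdac7SA and Mef2d, by Hras (labelled Ras) with the adenoviral protein E1A, or by Hras with Myc. Hdac7SA is an engineered form with serines replaced by alanine to keep it in the nucleus. The study names its Hras transgene as an oncogenic mutant form. The lines were made by transfection and passaged for a month or longer to lose untransformed cells, and the sources do not say whether each is a single clone. PD was the MEK inhibitor PD0325901 and TSA the histone deacetylase inhibitor trichostatin A, each given for 2 days. About 50000 cells went into each library, and 12 libraries were made: 2 for each untreated line, 2 for each PD group and 1 for each TSA group. The study asked how transformed lines differ in their capacity to be reprogrammed to pluripotency and whether inhibitors change it. Each deposited list holds the peaks of 1 group with its libraries pooled, so no value has a replicate error and no test between groups was possible. Each share carries its exact (Clopper-Pearson) 95% binomial interval, which reflects counting error alone and takes adjacent loci as independent of each other. Sequencing depth is unknown, so the lack of a peak does not mean the lack of reads.

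The lists were of unequal length, from 56774 peaks in Hras.Myc +PD to 119251 in Hdac7SA.Mef2d. As a check of the labelled cell type, 7 to 11 of 12 fibroblast marker genes had a peak at their promoter in each list. Epithelial markers had one at 4 to 6 of 6 promoters, neural markers at 3 or 4 of 4, endothelial markers at 1 to 3 of 4, blood markers at 1 or 2 of 4, and pluripotency markers at 1 of 4. Open promoters thus did not set fibroblasts apart from epithelial or neural cells, and an open promoter does not show expression.

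ATAC-seq marks DNA that the Tn5 transposase can reach, which in fibroblasts is mostly promoters, enhancers and sites held by the architectural protein CTCF. Distal enhancers of fibroblasts are typically opened by AP-1, a dimer of Fos and Jun proteins that lies downstream of the Ras, MEK and ERK kinase cascade, together with TEAD and RUNX factors. MEK inhibition blocks that cascade below Ras, whereas TSA raises histone acetylation across the genome. HDAC7 is a class IIa histone deacetylase that binds and represses MEF2 factors, and E1A binds the retinoblastoma protein and the acetyltransferases p300 and CBP.

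Sequences of 6 members show the motifs on which the description turns. They were read from GRCm38.p6 (mm10), plus strand, as the central 200 bp of each locus, 5′ to 3′. Capitals mark the AP-1 motif TGANTCA in the opening 4 sequences, the CTCF motif in the fifth and the FOX motif TGTTTAC, here on its reverse strand, in the last. For each combination of motif and state, members of highest rank in both selecting lists were taken from the loci, genes and stretches named in the text, outside exons and UTRs. The combinations were set after the values were seen.
Mtpn-side locus, chr6:35944490-35944689, intergenic: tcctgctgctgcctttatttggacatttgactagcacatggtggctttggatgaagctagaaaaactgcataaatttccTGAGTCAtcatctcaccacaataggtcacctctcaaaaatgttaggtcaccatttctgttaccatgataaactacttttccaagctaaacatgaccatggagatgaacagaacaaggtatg
Ccser1 locus, chr6:61217849-61218048, intron: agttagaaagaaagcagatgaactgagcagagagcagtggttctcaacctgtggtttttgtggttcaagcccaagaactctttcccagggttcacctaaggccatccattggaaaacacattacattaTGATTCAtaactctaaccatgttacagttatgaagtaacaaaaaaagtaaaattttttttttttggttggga
Chrm3-side locus, chr13:10867959-10868158, intergenic: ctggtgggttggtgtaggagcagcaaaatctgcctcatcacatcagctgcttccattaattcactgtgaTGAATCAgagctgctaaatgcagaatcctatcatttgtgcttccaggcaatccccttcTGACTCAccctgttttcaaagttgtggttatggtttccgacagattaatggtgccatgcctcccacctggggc
Sdk1 locus, chr5:141303814-141304013, intron: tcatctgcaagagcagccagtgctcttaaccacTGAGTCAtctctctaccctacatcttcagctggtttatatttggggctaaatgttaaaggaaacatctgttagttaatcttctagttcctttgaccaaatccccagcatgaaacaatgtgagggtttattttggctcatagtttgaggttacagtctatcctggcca
Lmcd1-side locus, chr6:112207390-112207589, intergenic: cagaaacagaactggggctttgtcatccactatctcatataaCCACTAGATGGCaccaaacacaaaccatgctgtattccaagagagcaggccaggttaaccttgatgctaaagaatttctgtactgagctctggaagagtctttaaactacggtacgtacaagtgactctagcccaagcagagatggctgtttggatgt
Mpzl1 locus, chr1:165617291-165617490, intron: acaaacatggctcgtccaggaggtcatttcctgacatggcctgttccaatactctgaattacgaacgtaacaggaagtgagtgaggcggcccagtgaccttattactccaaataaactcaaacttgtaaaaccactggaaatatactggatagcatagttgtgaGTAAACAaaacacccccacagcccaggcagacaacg

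The 6 loci differed in how they answered the inhibitors. The Mtpn-side and Ccser1 loci, each with 1 AP-1 motif, had no peak in Hras.E1A with PD or with TSA, nor in any Hras.Myc list. Scores are printed as deposited, on a scale that the sources do not give, so those of different lists are not compared, and ranks are percentiles within a list. Scores were 16.6 in Hdac7SA.Mef2d and 17.1 in Hras.E1A at the Mtpn-side locus and 10.6 and 11.3 at the Ccser1 locus. The Chrm3-side locus, with 2 AP-1 motifs, had the highest rank in Hras.E1A of the 6, at the 99.9 percentile, lost its peak with PD, and kept one with TSA at the 37.6 percentile. The Sdk1 locus also lost its peak with PD, and stood at the 99.7 percentile in untreated Hras.E1A and the 99.8 percentile in Hras.E1A +TSA. The Lmcd1-side locus with its CTCF motif kept a peak under both inhibitors in Hras.E1A, at the 56.3 percentile untreated, 35.9 with PD and 46.9 with TSA. The Mpzl1 locus with its FOX motif did so too, at the 77.7, 24.9 and 28.1 percentiles.

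Most members had no peak once MEK was inhibited. In Hras.E1A +PD, 3480 of the 10466 members had a peak (33.3%, interval 32.3 to 34.2) and 6986 had none (66.7%, interval 65.8 to 67.7). Among all 80569 Hras.E1A loci, 38.9% had lost their peak with PD. Among the Hras.E1A loci that were not members, 65.2% had a peak with PD, which is 32.0 percentage points above the members. Members had lower scores and fewer promoters than those other loci. With the other loci weighted to the members' score deciles and promoter share, 58.6% of them had a peak with PD. The members' share was above that of the 4676 loci open in Hras.E1A and absent from Hdac7SA.Mef2d, Hras.Myc and Hras.Myc +PD, of which 25.5% (interval 24.3 to 26.8) had a peak with PD. Those 4676 loci, like the members, were chosen for absence from Hras.Myc +PD, the other PD list, which the rest of the Hras.E1A loci were not.

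Fewer members lacked a peak with TSA. In Hras.E1A +TSA, 5969 members had a peak (57.0%, interval 56.1 to 58.0), and 43.0% had none, against 15.8% of all Hras.E1A loci. Sets defined by a like absence had similar shares: 44.996% of the 4676 Hras.E1A loci absent from the other lines had no peak in Hras.E1A +TSA, and 39.4% of the mirror set, the 2192 loci open in Hdac7SA.Mef2d and Hras.Myc and in neither Hras.E1A nor Hras.E1A +PD, had none in Hras.Myc +TSA. Of the loci open in all 3 untreated lines, 95.2% had a peak with TSA. Weighting the other Hras.E1A loci to the members' scores and promoter share gave 85.1%. The states with PD and with TSA were only loosely related: of the members that kept their peak with PD, 61.3% (interval 59.7 to 62.9) had one with TSA, and of those that lost it, 54.9% (interval 53.7 to 56.1). Only 2133 members, 20.4%, had a peak in all 3 Hras.E1A lists. The TSA lists come from 1 library each and the PD lists from 2, so inhibitor and library number cannot be told apart.

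Hras.Myc +TSA was the only Hras.Myc list in which a member could have a peak, and 2937 members did (28.1%, interval 27.2 to 28.9). Among all loci with no peak in Hras.Myc and Hras.Myc +PD, 17.3% had one in Hras.Myc +TSA. The members stood below the 4676 Hras.E1A loci absent from Hdac7SA.Mef2d and from Hras.Myc with and without PD, of which 31.9% (interval 30.5 to 33.2) gained a peak. A member with a peak in Hras.E1A +TSA had one in Hras.Myc +TSA in 33.7% of cases (interval 32.5 to 34.9), and a member without in 20.6% (interval 19.4 to 21.8). The state with PD made little difference, at 28.4% for members that kept their peak and 27.9% for those that lost it, with overlapping intervals. The peaks gained in Hras.Myc +TSA were mostly weak: their median score percentile within that list was 33.3, with quartiles of 17.8 and 48.9. The remaining 7529 members, 71.9%, had no peak in any Hras.Myc list.

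**Figure D1:**
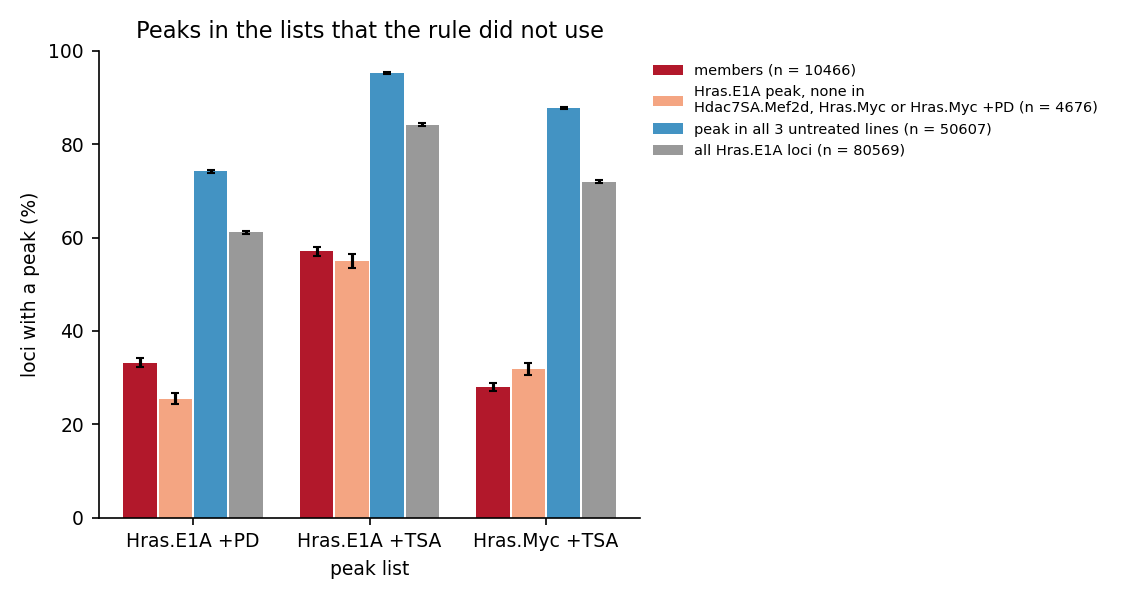
Share of loci with a peak (percent, vertical axis) in the 3 lists that the rule did not use, for the members, for Hras.E1A loci absent from Hdac7SA.Mef2d, Hras.Myc and Hras.Myc +PD, for loci open in all 3 untreated lines and for all Hras.E1A loci. Bars show shares and lines the exact 95% binomial intervals. The members stand at 33.3%, 57.0% and 28.1% and the loci open in all 3 lines at 74.2%, 95.2% and 87.7%. The latter were chosen with a peak in Hras.Myc and the members without one, so the gap in Hras.Myc +TSA follows from the choice. The gaps in Hras.E1A +PD and Hras.E1A +TSA cannot be told apart from the choice of members either.

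Taking the 3 lists jointly, the members fell into 8 states. The most common were a peak in Hras.E1A +TSA alone, with 2528 loci, and no peak in any of the 3, with 2510 loci. A further 1430 had a peak in both treated Hras.E1A lists but not in Hras.Myc +TSA, 1308 in both TSA lists but not with PD, and 1061 with PD alone. The state with a peak in all 3 lists held 703 loci, Hras.Myc +TSA alone 640, and PD with Hras.Myc +TSA 286. The AP-1 motif, described next, followed the state with PD across all 8: it was in 39.8% to 59.0% of loci in the 4 states without a PD peak and in 13.5% to 22.0% in the 4 states with one. The CTCF motif ran the other way, at 0.612% to 1.09% in the 4 states without a PD peak and 3.39% to 7.68% in the 4 with one.

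**Figure D2:**
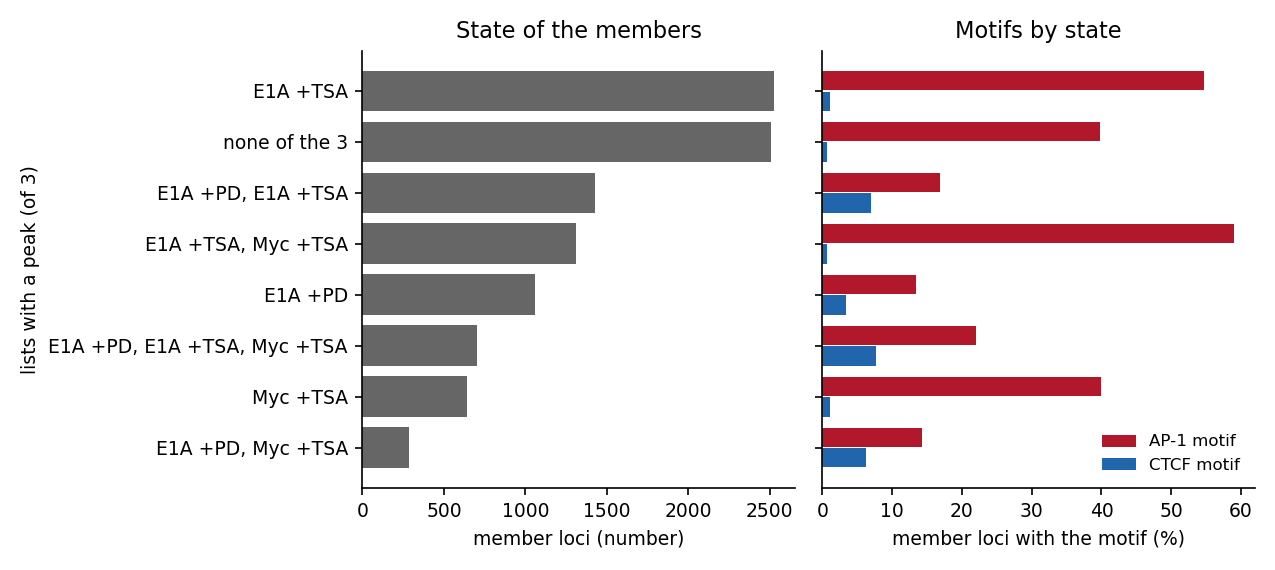
Left, number of member loci in each of the 8 combinations of a peak in Hras.E1A +PD, Hras.E1A +TSA and Hras.Myc +TSA. Right, percent of those loci with an AP-1 (red) or a CTCF motif (blue) in their central 200 bp. The 4 combinations that include E1A +PD have the 4 lowest AP-1 shares, 13.5% to 22.0%, and the 4 highest CTCF shares, 3.39% to 7.68%.

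A set of 36 motifs was searched as exact letters, forward and reverse, in the middle 200 bp of every locus. Those described were singled out after their values were seen. AP-1, TGANTCA, was the most common among the members, in 3988 of 10466 (38.1%, interval 37.2 to 39.0), against 29.2% of all merged loci. It was not particular to them: distal loci open in all 3 untreated lines held it in 39.9% (45.2% when weighted to the members' GC content), and 46.5% (weighted, 48.5%) of the mirror set did. Members that lost their peak with PD held it in 48.8% (interval 47.6 to 50.0), and members that kept their peak in 16.7% (interval 15.4 to 17.9). The kept members had higher GC content, 47.8% against 44.8%, and weighted to the GC content of the lost members the kept share was 19.2%. Without promoter loci the shares were 49.8% and 17.8%. Counted from the motif, a member without it kept its peak with PD in 44.8% of cases (interval 43.6 to 46.0), one with 1 motif in 15.9% (interval 14.7 to 17.2) and one with 2 or more in 5.82% (interval 4.01 to 8.11). The same direction held for Hras.E1A loci that were not members: away from promoters, 72.8% of those without the motif and 33.4% of those with it had a peak with PD. Members away from promoters had 43.4% and 14.4%, so with and without the motif their share with a PD peak was lower than that of other loci. Members were chosen for absence from Hras.Myc +PD, where 64.2% of all other Hras.E1A loci, promoters included, had a peak. The gap between members and other loci cannot be told apart from that choice.

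AP-1 also rose with peak rank. Of members in the lowest 20 percentiles of the Hras.E1A list by score, 27.5% (interval 25.8 to 29.3) held the motif, and of those above the 80 percentile 59.4% (interval 57.0 to 61.9). In every step of 20 percentiles the members that lost their peak with PD were above those that kept it, with 34.97% against 11.8% in the lowest step and 71.96% against 29.9% in the highest. The share of members with a PD peak ranged over the steps from 29.8% to 35.8%. The share with a peak in Hras.E1A +TSA rose from 48.6% in the lowest step to 70.9% in the highest.

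CTCF, which holds chromatin loops and domain borders, showed the opposite. Its motif was in 266 members (2.54%, interval 2.25 to 2.86), of which 208 kept their peak with PD. That was 5.98% of kept members (interval 5.21 to 6.82) and 0.830% of lost ones (interval 0.631 to 1.07). A member with a CTCF motif kept its peak with PD in 78.2% of cases (interval 72.7 to 83.0), below the 97.0% (interval 96.4 to 97.5) of CTCF-motif loci of Hras.E1A outside the members. The members were chosen for absence from Hras.Myc +PD and those loci were not, so this gap cannot be told apart from the choice. CTCF was rarer among members than among distal loci open in all 3 untreated lines, which held it in 8.65%. It was more common than in the mirror set, where 10 loci held it (0.456%, interval 0.219 to 0.837).

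**Figure D3:**
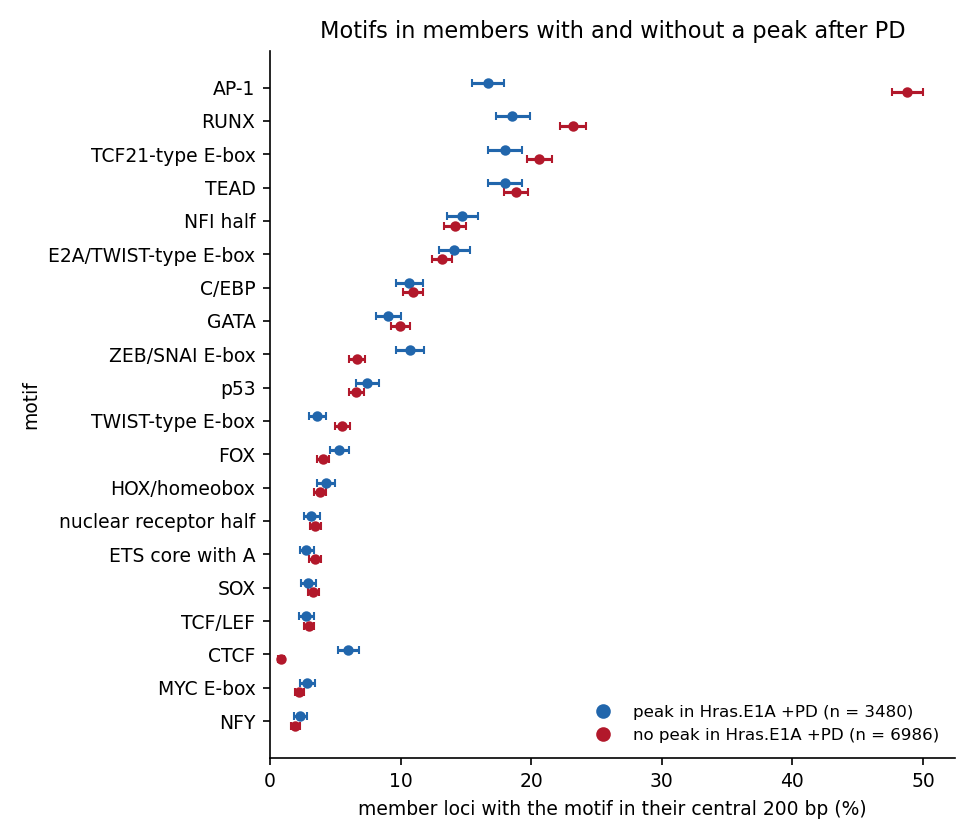
Percent of members (horizontal axis) with each of the 20 most common motifs in their central 200 bp, for members with (blue) and without (red) a peak in Hras.E1A +PD; lines are exact 95% binomial intervals. AP-1 at 16.7% and 48.8% and CTCF at 5.98% and 0.830% are the widest gaps, and TEAD at 17.99% and 18.8% overlaps.

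Within the locus, AP-1 motifs gathered at the centre. In members that lost their peak with PD there were 87.0 motifs per 1000 loci in the 20 bp right of the centre and 9.02 at the left edge, and in kept members 31.3 and 6.90. CTCF motifs of kept members lay to either side, with 10.1 per 1000 loci at 20 to 40 bp left of the centre, 3.16 in the 20 bp left of it and 9.48 at 40 to 60 bp right of it.

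**Figure D4:**
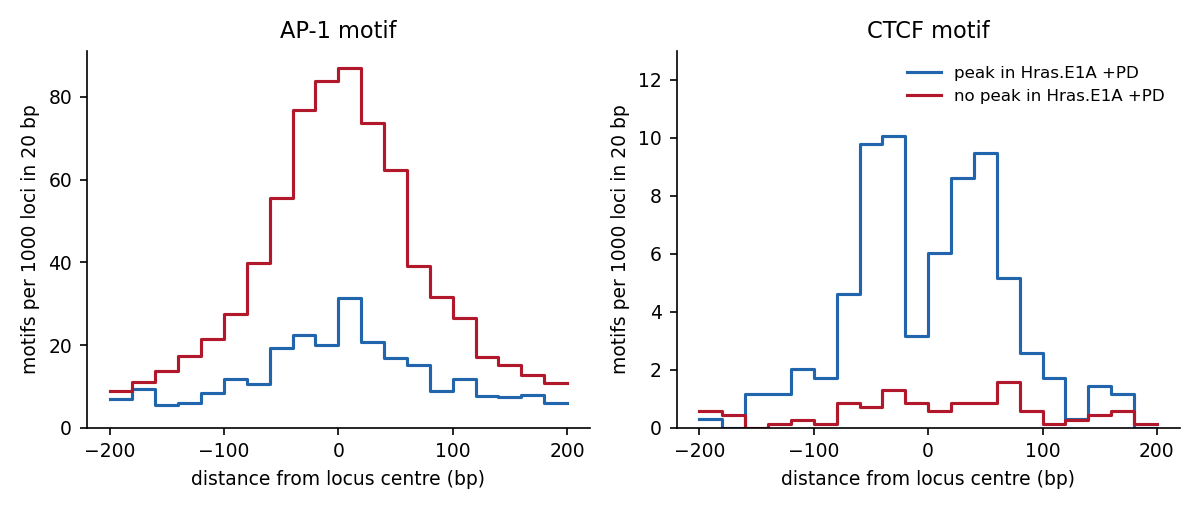
Motifs per 1000 loci (vertical axis) in bins of 20 bp against the distance from the centre of the locus (bp), for members with (blue) and without (red) a peak in Hras.E1A +PD. AP-1 peaks at the centre, at 87.0 in members without a PD peak and 31.3 in members with one, and CTCF has a maximum on each side of the centre.

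Of the partner factors, RUNX (TGTGGT) was in 21.7% of members (interval 20.9 to 22.5), above the mirror set at 18.8%, distal loci open in all 3 lines at 19.1% and all loci at 18.9%. It was also more common in members that lost their peak with PD, 23.2% (interval 22.2 to 24.2), than in those that kept it, 18.6% (interval 17.3 to 19.9). TEAD (GGAATG), the factor of the Hippo pathway, was in 18.5% of members and 19.8% of the mirror set with overlapping intervals, and in 12.2% of Hras.E1A loci absent from the other lines. FOX (TGTTTAC) was in 4.46% of members (interval 4.07 to 4.88), 2.42% of the mirror set (interval 1.82 to 3.15) and 2.82% of distal loci open in all 3 lines (interval 2.66 to 3.00). Weighted to the members' GC content, these 2 sets had 2.67% and 3.31%. The Hras.E1A loci absent from the other lines had 3.64%, and 4.47% when weighted, so FOX was as common there as in the members. FOX was in 5.29% of members that kept their peak with PD and 4.05% of those that lost it, a much smaller gap than for CTCF. The E-box CAGGTG, bound by ZEB and SNAI repressors, was less common in members, 7.98% (interval 7.47 to 8.51), than in distal loci open in all 3 lines, 12.97%. Weighted to the members' GC content the latter was 10.6%. The mirror set held it in 8.80%, and in 8.01% when weighted, close to the members. It was in 10.7% of members that kept their peak with PD and 6.63% of those that lost it.

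The MEF2 motif, which Mef2d binds, was rare. It was in 58 members, 0.554% (interval 0.421 to 0.716), in 1.05% of the mirror set (interval 0.666 to 1.57) and in 0.107% of Hras.E1A loci absent from Hdac7SA.Mef2d and Hras.Myc (interval 0.0347 to 0.249). All merged loci held it in 0.880%. Members and the mirror set share the Hdac7SA.Mef2d peak, and the third set lacks it. Loci open in all 3 untreated lines, which also share that peak, held the MEF2 motif in 0.551%, and the distal ones among them in 0.687%. Whether the Mef2d transgene bears on these shares was not tested. The EBF motif was in 1.02% of members (interval 0.839 to 1.23) and 0.411% of the mirror set (interval 0.188 to 0.778), but in 1.52% of Hras.E1A loci absent from the other lines (interval 1.19 to 1.91) and 0.871% of distal loci open in all 3 lines.

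The members were distal. Promoter loci, those within 1000 bp of a transcription start (TSS) of protein-coding genes, made up 523 members (4.997%, interval 4.59 to 5.43), against 26.7% of loci open in all 3 untreated lines, 3.92% of the mirror set and 6.07% of Hras.E1A loci absent from the other lines. Away from promoters, 46.1% of members were in introns, 41.6% between genes and 7.34% over exons. The median distance to the nearest TSS was 42220 bp, against 14816 bp for loci open in all 3 lines, and 46224 against 27579 bp without promoters. Promoter members kept their peak with PD in 58.5% of cases (interval 54.2 to 62.8) and distal members in 31.9% (interval 31.0 to 32.8). Other Hras.E1A loci differed in the same direction, with 94.3% at promoters and 57.6% away from them. The promoter members were mostly weak, at 8.55% of members in the lowest 20 percentiles of Hras.E1A scores and 1.27% above the 80 percentile. In GC content the members had 45.8% on average and the mirror set 47.9%, and 12.8% of their central bases were marked as repeats in the genome.

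By chromosome, members made up 11.3% of the Hdac7SA.Mef2d and Hras.E1A loci on chromosome 19 (interval 9.91 to 12.9), the lowest share among autosomes, and 19.1% on chromosome 14 (interval 17.6 to 20.7), the highest. Chromosome X stood at 16.9%, and neither of the 2 such loci on chromosome Y was a member. The mirror set made up 4.11% of the loci shared by Hdac7SA.Mef2d and Hras.Myc over all chromosomes. The lists were not of equal length, so the 16.0% and 4.11% are not a measure of how close the lines are.

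In the lists that selected them, members were of middle rank. Their median score percentile was 43.9 in Hras.E1A (quartiles 21.4 and 68.5) and 47.7 in Hdac7SA.Mef2d (quartiles 23.5 and 74.5), against 57.8 and 52.3 for loci open in all 3 untreated lines. The share of members among the Hdac7SA.Mef2d and Hras.E1A loci fell from 23.1% in the lowest 20 percentiles of Hras.E1A scores to 10.7% above the 80 percentile. Just inside the rule, the 3 weakest members had scores of 1.2002, 1.2013 and 1.2013 in Hdac7SA.Mef2d or Hras.E1A, beside a lowest score of 1.2001 in Hdac7SA.Mef2d and 1.2002 in Hras.E1A. Just outside it, the 3 loci nearest to being members had scores of at most 1.2002, 1.2004 and 1.2007 in Hras.Myc or Hras.Myc +PD. In all, 2729 loci open in Hdac7SA.Mef2d and Hras.E1A were kept out only by Hras.Myc or Hras.Myc +PD peaks in the lowest 10 percentiles of their lists. The nearest Hras.Myc peak was a median of 12306 bp from a member, and 109 members (1.04%) had one less than 500 bp away.

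The 10 members with the highest rank in both selecting lists lay 34741 to 814665 bp from a TSS. Of these, 9 had no peak with PD, 8 had one in Hras.E1A +TSA, 3 in Hras.Myc +TSA and 7 held an AP-1 motif. Among all members above the 80 percentile of the Hras.E1A list, 29.8% had a PD peak and 70.9% one in Hras.E1A +TSA. In Hras.Myc +TSA 29.6% of those members had a peak, and 59.4% of them held an AP-1 motif. The 9 without a PD peak included the Chrm3-side, Sdk1 and Mtpn-side loci printed above. A locus in an intron of Catsperb, a sperm calcium channel subunit (chr12:101483602-101484001), had scores of 23.7 in Hdac7SA.Mef2d, 19.5 in Hras.E1A, 21.4 in Hras.E1A +TSA and a peak at the 79.8 percentile in Hras.Myc +TSA, the highest rank there of the 10. A locus in Mmp16, a membrane-bound matrix metalloproteinase (chr4:17894473-17894872), had scores of 26.1 and 17.4 in the selecting lists, no peak in any treated list and no AP-1 motif. The exception with PD was a locus 35940 bp from the TSS of the kinase gene Hunk (chr16:90349674-90350073), with scores of 17.5 in Hdac7SA.Mef2d, 18.6 in Hras.E1A, 20.3 with PD and 13.2 with TSA, and no AP-1 motif.

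Some stretches of the genome held several members. The 10 stretches of 100000 bp with the most members were 5 with 7 members and 5 with 6. They held 65 members in all, of which 24 had a peak with PD, beside 33.3% of all members. The stretches were picked for their counts, and whether members lie closer together than other open loci was not tested. The stretch over the 5′ side of Lmcd1, a LIM-domain cofactor (chr6:112191118-112273937), held 8 loci, 7 of them members, and no Hras.Myc or Hras.Myc +PD peak. With PD, 6 of its 7 members kept their peak, among them the CTCF-motif locus printed above and the locus at the Lmcd1 TSS, and 3 had one in Hras.Myc +TSA. In the stretch within Fam135b (chr15:71483272-71555822), 7 of 10 loci were members, 1 kept its peak with PD, 6 had one with TSA in Hras.E1A and none had one in any Hras.Myc list. In an intergenic stretch 161774 bp or more from any protein-coding TSS, on the side of Crbn (chr6:106961848-107052078), none of 6 members had a peak with PD, 5 had one with TSA and 4 held an AP-1 motif. The stretch over Ddr2 (chr1:170025957-170081303) was unlike these, with a peak at 3 of 6 members in Hras.E1A +PD, at none in Hras.E1A +TSA and at 1 in Hras.Myc +TSA.

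**Figure D5:**
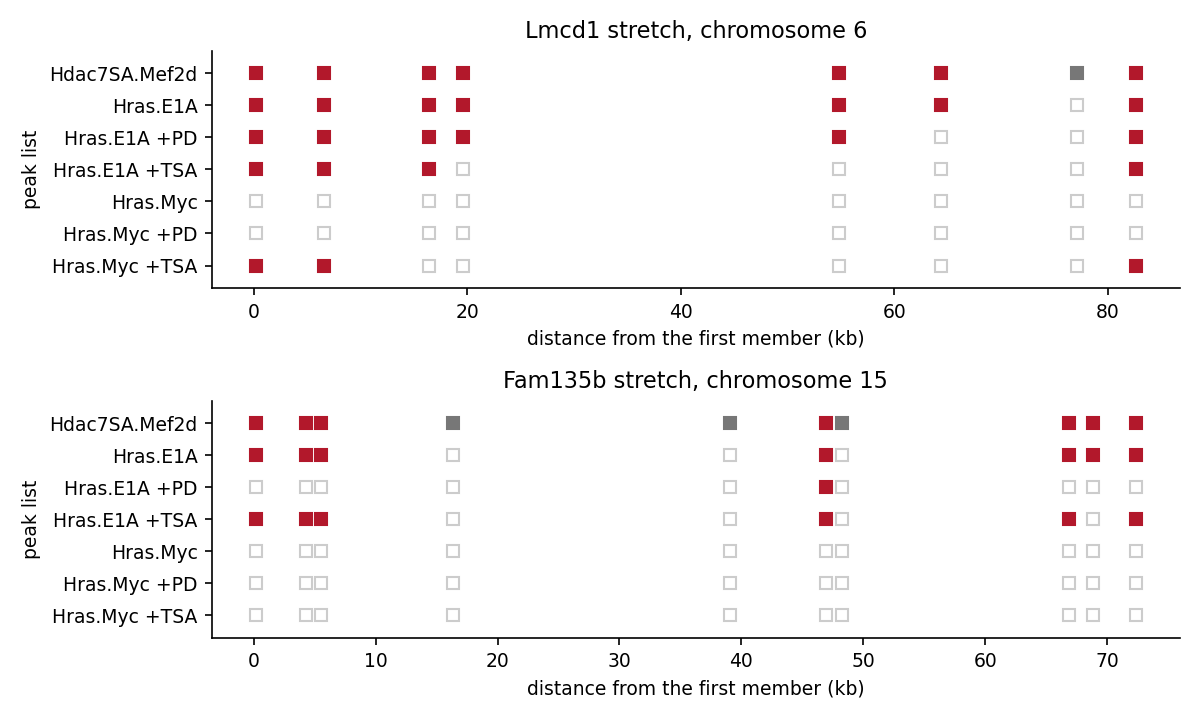
All loci of the Lmcd1 and the Fam135b stretches, chosen after their values were seen, neither holding a peak of Hras.Myc or Hras.Myc +PD, by distance from the first member (kb, horizontal axis) and peak list (rows). Filled squares are peaks, red for members and grey for other loci, and open squares are loci without a peak. In the Lmcd1 stretch 6 of 7 members keep a peak with PD, and in the Fam135b stretch 1 of 7 does.

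Few genes held more than 1 member nearby. Within 10000 bp of a TSS, 1996 of 21827 protein-coding genes (9.14%) had a member, 164 had 2 and 16 had 3. The 25 named genes with the most members comprised 13 with 3 and 12 with 2, and their 63 member loci kept a peak with PD at 26 and lost it at 37. This was close to the share near any protein-coding gene, where 805 of 1930 members kept a peak with PD and 1125 lost it. At 10 of the 25 every locus shared by Hdac7SA.Mef2d and Hras.E1A was a member. Near all protein-coding genes 7.92% of such loci were members. The 25 were chosen for having the most members, so a high share among them follows from the choice. The genes with 3 included Pik3c2g, a class II phosphoinositide kinase, Asic2, an acid-sensing ion channel, Tacc2, a centrosomal protein, Celf2, an RNA-binding splicing factor, Cmah, which makes a sialic acid, and Sulf1, which trims sulfate groups from heparan sulfate. They also included Alox5ap, which serves leukotriene synthesis, Art3, Ear10, Kcnmb2, a potassium channel subunit, Mras, a Ras-family GTPase, Rasef, a Rab-family GTPase, and Tbx1, a T-box transcription factor. Ear10 belongs to a family of similar ribonuclease genes, so its loci may be shared with a copy. The 12 with 2 were the kinases Mast4 and Abl1, the collagen receptor Ddr2, the Notch effector Rbpj, the zinc finger gene Tshz2, the adhesion genes Cadm3 and Lrrc4c, the cytoskeletal genes Ank2 and Epb41l2, and Anks1b, Slc35g2 and AI593442.

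At 8 of the 25 genes no member within 10000 bp kept its peak with PD, among them Celf2 and Kcnmb2 with 3 members each. Near any gene 1125 of 1930 members lost their peak. Within 50000 bp, Epb41l2 and Ank2 of these 8 each had 1 member that kept it. All 3 Celf2 members, at the TSS of a transcript and 8426 and 9236 bp from a TSS, had no peak in any treated list. The Mast4 member 9522 bp from a TSS (chr13:103343982-103344381) was one of the strongest at a named gene, with an AP-1 motif, scores of 10.4 in Hdac7SA.Mef2d and 17.8 in Hras.E1A, no peak with PD and 8.40 with TSA. The intronic Ank2 member (chr3:126989956-126990355) had 2 AP-1 motifs, a score of 17.4 in Hras.E1A, none with PD, 7.81 with TSA and 3.70 in Hras.Myc +TSA.

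At 5 of the 25 every member within 10000 bp kept its peak with PD: Asic2, Art3, Rbpj, Tshz2 and Ddr2. These genes had 2 or 3 such members each, and near any gene 805 of 1930 members kept their peak. Within 50000 bp, all of these genes but Art3 also had members that lost it. Both Rbpj members within 10000 bp were intronic. The stronger (chr5:53564297-53564696) had scores of 7.28 in Hdac7SA.Mef2d, 11.6 in Hras.E1A, 11.9 with PD and 8.17 with TSA, and the weaker (chr5:53565366-53565765) had 2.93 in Hdac7SA.Mef2d, 1.7968 in Hras.E1A, 2.07 with PD and no peak with TSA. Outside the 25, Lox, which cross-links collagen, Ltbp4, which binds latent TGF-β, and Mpzl1 had 2 members each and kept a peak with PD at both. The member over a Lox TSS had scores of 3.41 in Hdac7SA.Mef2d, 2.07 in Hras.E1A, 4.04 with PD and 2.07 with TSA, all below the 25 percentile of their lists.

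Of the transgenes' own genes, Hras, Myc and Mef2d had no member within 10000 bp and Hdac7 had 1, in an intron, with scores of 3.06 in Hdac7SA.Mef2d and 1.85 in Hras.E1A and no peak in any treated list. Among the other genes of the study, Cdh1, Epcam, Isl1 and Nanog had none, and neither had Tcf7l2, which had 3 within 50000 bp. Pou5f1, which encodes OCT4, had 1 member 4403 bp from its TSS, below the 4 percentile in Hdac7SA.Mef2d, in Hras.E1A and with PD, where its scores were 1.4996, 1.4952 and 1.72.

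Gene groups were compared by the number of their genes with a member within 10000 bp, beside 9.14% over all genes, and neighbouring genes can share a member. The highest share was that of the group named for MEF2 factors and class IIa histone deacetylases, 6 of 14 genes. That group also holds other genes such as the target Klf4, which is counted again among the pluripotency genes. Mef2c had 2 members in its introns, 1 of which kept its peak with PD with a score of 12.5 at the 87.6 percentile, beside the 53.04 percentile untreated, and the other of which held a MEF2 motif and lost its peak. Hdac4, Hdac5, Hdac7 and the target Klf4 had 1 each, and those at Hdac5 and Klf4 were below the 10 percentile in every list with a peak. Of 24 receptor tyrosine kinases 6 had a member, among them Ddr2 and Met, the hepatocyte growth factor receptor, with 2 each, and Erbb2, Fgfr1 and Ntrk2. The Met members lost their peak with PD, and the Ntrk2 member over its TSS kept it, at the 46.2 percentile untreated and 41.3 with PD.

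Of 39 Hox genes 10 had a member, from 6 loci in all, since Hox neighbours share them. Of 39 mesenchymal lineage regulators 9 had one, with 2 at the bone factor Runx2 and 1 each at Dlx5, Runx3, Tbx5 and Ebf3. The Runx2 member over a TSS had a peak in all 3 treated lists, with scores of 6.04 in Hdac7SA.Mef2d, 2.93 in Hras.E1A, 3.66 with PD, 3.36 with TSA and 5.58 in Hras.Myc +TSA. Of 36 TGF-β and BMP pathway genes 8 had one, among them the BMP receptor gene Bmpr1b, the ligand genes Bmp2 and Inhba, the antagonist gene Grem1 and the activin receptor gene Acvr1b, and 6 of these 8 loci kept a peak with PD, beside 805 of 1930 members within 10000 bp of any gene. Of 22 pluripotency genes 5 had one: Pou5f1, Fgf4, Klf4, Lefty1 and Tbx3, 4 of them with a peak with PD, to be read beside the same 805 of 1930. Of 30 collagen and matrix genes 5 had one, namely Lox, Fbln2, Col3a1, Col5a1 and Col6a1.

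In 2 groups no gene had a member: the 10 transcription factors of epithelial-mesenchymal transition, with 17 loci shared by Hdac7SA.Mef2d and Hras.E1A, and the 25 cell cycle and E2F target genes, with 41. Groups under the background share were the Wnt pathway with 2 of 35 genes (Dkk1, Wnt2), the retinoblastoma and p53 checkpoint with 1 of 20 (Cdkn2a), interferon and MHC class I genes with 1 of 20 (Oas1a), housekeeping genes with 1 of 15 (Hprt), blood markers with 1 of 14 (Cd34), the MYC and MAX network with 1 of 13 (Mxd3), ERK feedback and target genes with 2 of 24 (Egr2, Spred3), epithelial genes with 2 of 23 (Dsp, Krt8) and axon guidance genes with 3 of 34 (Ntn1, Sema6d, Slit3). Both ERK target loci lost their peak with PD, as did both loci of the AP-1 factors, 2 of 12 genes (Batf, Mafk), beside 1125 of the 1930 members near any gene.

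The others stood at or above it, with 2 of 20 Hippo and TEAD genes, 4 of 39 chromatin regulators, 3 of 25 actin and SRF targets, 3 of 24 fibroblast identity genes, 3 of 21 MAPK and Ras regulators, 4 of 28 integrin and focal adhesion genes, 2 of 14 endothelial markers and 3 of 18 neural markers. Among the chromatin regulators, the promoter of Ezh2, the H3K27 methyltransferase, held a member with an AP-1 motif and scores of 11.2 in Hdac7SA.Mef2d, 10.3 in Hras.E1A and 6.32 with TSA, and none with PD. The Dnmt3a promoter member stood at the 79.2 percentile in Hras.E1A, 51.5 with PD, 63.8 with TSA and 4.30 in Hdac7SA.Mef2d. The counts are small, the groups were not tested, and their order changed with the measure. Counted as the share of loci shared by Hdac7SA.Mef2d and Hras.E1A that were members, 7.92% near all genes, several groups at or above the background by genes fell under it: Hippo and TEAD with 3 of 50 loci, chromatin regulators with 4 of 87, actin and SRF targets with 3 of 62, fibroblast identity with 3 of 51, integrins with 5 of 68, neural markers with 3 of 40 and AP-1 factors with 2 of 31. Within 50000 bp, where 35.4% of all genes had a member, Hox genes led with 84.6%, and groups under the background at 10000 bp stood above it, among them interferon and MHC class I genes with 65%, axon guidance with 50%, the retinoblastoma and p53 checkpoint with 50%, the Wnt pathway with 45.7% and epithelial genes with 43.5%. The MEF2 and class IIa group had 57.1% of its genes there, but 11.7% of its shared loci were members, against 12.2% near all genes. By that share of loci, Hox genes had 12.1%, from 11 member loci, and interferon and MHC class I genes 10.7%. The Wnt pathway had 9.91%, the retinoblastoma and p53 checkpoint 7.84% and epithelial genes 6.79%, all under the background. Axon guidance had 16.4%, above it.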

How the data were processed

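Chromatin accessibility was measured by ATAC-seq. Per the labels and the study's methods, the authors aligned reads to mm10 with Bowtie2 (2.4.5), called peaks with MACS2 (2.2.7.1), and shared peak information across samples to recover weak peaks, so the lists are not independent. Each of the 7 deposited lists holds 400 bp peaks with a score whose scale is not given, used here as a rank. Replicates are pooled. Loci were merged in Python 3 (pandas, NumPy, SciPy, pysam), annotated with GENCODE M21 and read from RefSeq GRCm38.p6. The steps were checked on simulated peaks. Members and gene lists were chosen with earlier results of these data known. Named genes were the 25 with most members within 10000 bp of a TSS (predicted genes left out), the 8 each with most members kept or lost with PD, up to 5 of each list, the transgenes and 6 genes of the study. Named loci were the 10 of highest rank in both selecting lists and the 10 densest stretches. Loci or motifs otherwise described were picked after their values were seen. Alternatives were stricter absence from Hras.Myc +TSA, lists without their lowest 25% or cut to the shortest, other overlap, promoter, gene and motif windows, and GC weighting. Depth is unknown.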

Additional observations from a re-analysis of the deposited data

How the results depend on the processing

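No paired analysis was possible because each list pools its libraries, so none could be left out and no block fitted. Of 421 recomputed values, 287 stayed within their interval (counts within 1.5 times) and 134 moved. Among them were 89 values of the main results, of which 58 stayed and 31 moved. Cutting every list to the shortest left 4084 members, of which 31.5%, 53.3% and 25.1% had a peak in Hras.E1A +PD, Hras.E1A +TSA and Hras.Myc +TSA and 1.89% were at promoters. AP-1 was then in 49.9%, in 23.3% of members kept and 62.1% of members lost with PD, and the median percentiles were 51.6 in Hras.E1A and 53.6 in Hdac7SA.Mef2d. Without the lowest 25% of each list these were 31.6%, 53.8% and 25.5% by list, 42.4% with AP-1 and 53.7% for lost members, and 40.3 and 49.0 for the percentiles. Requiring absence from Hras.Myc +TSA gave 52.6% in Hras.E1A +TSA and AP-1 in 36.7%, 15.4% of kept and 47.2% of lost members. Motif windows of 100 and 400 bp gave AP-1 in 26.1% and 46.9%, 10.5% and 23.0% of kept, and 33.8% and 58.8% of lost members. AP-1 was in 39.6% without promoters, and in 19.2% of kept members weighted for GC content. Promoter windows of 2000 and 500 bp gave 6.73% and 3.96%. The cause of these shifts was not tested. Lost members exceeded kept members in AP-1 in 12 of 12 settings, by 23.2 to 38.8 points, and other Hras.E1A loci exceeded members in PD peaks in 9 of 9, by 25.3 to 34.9 points. In each of these 9 the members were chosen for absence from Hras.Myc +PD and the other loci were not. The order in PD peaks therefore cannot be told apart from the choice of members. The weighting to the members' scores was added after the data were seen. Of 250 member counts at the 25 named genes, 77 moved by over 1.5 times. Depth is unknown, so a weak site and an absent site cannot be told apart.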
